A study of Mus musculus with 29 samples.

Results

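Endothelial cells sorted from niches that lacked 1 copy of Wnt5a were compared with endothelial cells sorted from wild-type (WT) niches. The comparison rests on 6 of the 29 mouse libraries of the study, chosen by their labels as endothelial (EC) and WT (replicates 13, 14 and 15) or EC and Wnt5a (replicates 16, 17 and 18). The study asked how WNT5A from the niche bears on blood stem cells that regenerate after transplantation. Beside the stem and progenitor cells, it profiled EC, osteoblastic (OBC) and mesenchymal (MSC) cells of the niche. All 6 endothelial libraries carry the strain label 129Ly5.1, and the genotypes are WT and Wnt5a-haploinsufficient. Cells were sorted by flow cytometry with a published niche protocol into a lysis buffer with detergent and RNase inhibitor. Complementary DNA was barcoded, pooled and amplified, so that unique molecular identifiers (UMIs), short random tags, count molecules and not amplified copies. The labels give no sort markers, animal ages or number of pooled animals, and do not say whether the hosts of these niche cells had been transplanted. They do not say either whether the libraries came from separate animals, so p-values measure only a spread between libraries, which may be technical. That spread was estimated from all 18 niche libraries, EC, OBC and MSC together. Wnt5a was not analysed here, so the genotype label was not checked by its own transcript.

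WNT5A is a secreted WNT ligand that acts mainly through Frizzled, ROR and RYK receptors. It is best known for signalling that does not pass through beta-catenin, and which reaches small GTPases, JNK, calcium and the actin cytoskeleton. Endothelial cells of the marrow line arterioles, capillaries and sinusoids, and supply stem cells with factors such as CXCL12 and stem cell factor (Kitl). Neutrophils are made in the same marrow in large numbers. Their precursors fill granules with proteins such as NGP, cathelicidin and lactoferrin, while S100A8 and S100A9 form calprotectin, an abundant protein of the neutrophil cytosol that monocytes also make.

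Of 1740 genes tested in the endothelial libraries, 3 rose in Wnt5a and 0 fell, a share of 0.172% called in either direction. All 3 are neutrophil genes, namely Ngp, S100a8 and S100a9. A gene passed at an adjusted p under 0.05, from edgeR's quasi-likelihood test with Benjamini-Hochberg adjustment over all genes tested. The unadjusted p was under 0.05 for 72 higher and 48 lower genes, and among lower genes DESeq2 called 0 and limma voom 1. Lower calls numbered 1 with library totals alone, which was Gm27441, 2 with no filter and 2 without the robust option. With 1 library left out they numbered 1 to 13, with 6 without WT 13 and 13 without WT 15. Gm27441 was also among the genes called with no filter, without the robust option and in each omission of 1 library. The promoters of these 3 genes are printed here because they are the only members past the test and rose together. Sequences are from RefSeq on GRCm38.p6, 5′ to 3′ on the gene's strand, from 250 bases before the start annotated there to 30 bases from it. For S100a8 and Ngp this start differs from the first base of the GENCODE gene coordinates given below. Capitals mark matches to short motifs. The S100a8 stretch lies at chr3:90668821-90669100 on the plus strand, S100a9 at chr3:90695692-90695971 on the minus strand and Ngp at chr9:110419558-110419837 on the plus strand.
S100a8: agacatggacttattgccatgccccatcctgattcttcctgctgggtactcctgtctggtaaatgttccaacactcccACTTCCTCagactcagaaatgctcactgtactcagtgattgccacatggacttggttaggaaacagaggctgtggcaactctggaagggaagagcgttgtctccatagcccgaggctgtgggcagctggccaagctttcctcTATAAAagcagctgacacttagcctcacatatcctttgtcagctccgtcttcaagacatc
S100a9: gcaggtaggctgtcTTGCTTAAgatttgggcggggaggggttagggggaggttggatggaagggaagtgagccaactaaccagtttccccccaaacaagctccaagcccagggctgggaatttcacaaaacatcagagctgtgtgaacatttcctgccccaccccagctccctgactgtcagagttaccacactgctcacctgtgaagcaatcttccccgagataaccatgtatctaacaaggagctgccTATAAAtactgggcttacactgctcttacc
Ngp: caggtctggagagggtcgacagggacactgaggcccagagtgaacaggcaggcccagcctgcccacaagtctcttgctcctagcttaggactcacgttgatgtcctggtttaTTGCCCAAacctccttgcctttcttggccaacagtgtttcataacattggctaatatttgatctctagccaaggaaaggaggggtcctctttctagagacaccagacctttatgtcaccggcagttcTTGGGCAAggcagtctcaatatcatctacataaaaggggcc

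Motifs of 5 kinds were searched on both strands of the whole 300-base window, which runs 50 bases past the start. They were TTGCNNAA for C/EBP factors, GAGGAAGT for PU.1, CCGGAAGT for other ETS factors, TGANTCA for AP-1 and TATAAA for the TATA box. C/EBP factors and PU.1 are regulators of granule genes in the myeloid lineage. Ngp held 2 matches to TTGCNNAA, TTGCCCAA from position -138 and TTGGGCAA, which reads on the reverse strand, from position -11. S100a9 held 1, TTGCTTAA from position -236. S100a8 held ACTTCCTC, the reverse strand of the PU.1 letters, from position -172, and TATAAA from position -30. The same TATAAA began at position 1 in S100a9, the annotated start itself. No window of the 3 held the other ETS or the AP-1 letters. Of all 32851 RefSeq windows, 10.8% held the C/EBP letters, 3.2% those of PU.1, 3.89% those of the other ETS factors, 7.81% those of AP-1 and 13.6% TATAAA. A match describes the letters of a window and is not a binding site.

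Ngp (GRCm38 chromosome 9, 110419747 to 110423012, plus strand) encodes neutrophilic granule protein. It stood at 38.0, 21.4 and 47.2 CPM (UMIs per 1000000 of the scaled library total) in WT 13, 14 and 15. In Wnt5a 16, 17 and 18 it stood at 274, 353 and 242 CPM. The 3 Wnt5a libraries were all well above the 3 WT libraries. The means were 35.6 ± 13.1 (SD, n = 3) and 289 ± 57.1 CPM (SD, n = 3). The fitted log2 fold change, Wnt5a over WT, was 2.93 (standard error, SE, 0.51; edgeR adjusted p = 7.21e-05). Behind these levels were 4, 2 and 7 UMIs in WT and 6, 46 and 15 in Wnt5a, so the WT level in particular rests on few molecules. Its log2 fold change lay between 2.68 and 3.19 over all 17 alternative analyses and it passed in each of them.

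S100a9 (chromosome 3, 90692632 to 90695721, minus strand), the larger calprotectin subunit gene, was at 104, 150.1 and 94.5 CPM in WT 13, 14 and 15. It was at 274, 881 and 516 CPM in Wnt5a 16, 17 and 18. Wnt5a 17 was the highest and Wnt5a 16, the shallowest library, the lowest of its group, yet no WT library reached it. The log2 fold change was 2.37 (SE 0.43, edgeR adjusted p = 0.000108). The call was lost without Wnt5a 17 (1.84, edgeR adjusted p = 0.0559). S100a8 (chromosome 3, 90668978 to 90670035, plus strand) was at 28.5, 139 and 81.0 CPM in WT and 593, 414 and 242 CPM in Wnt5a, in the same order. Again the groups did not overlap, with WT 14 the nearest to Wnt5a. Its log2 fold change was 2.23 (SE 0.46, edgeR adjusted p = 0.00132), and it did not pass without WT 13 (1.82, edgeR adjusted p = 0.0774), in the endothelial libraries fitted alone (2.21, 0.0832) or with no filter on low counts (2.04, 0.0661).

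**Figure D1:**
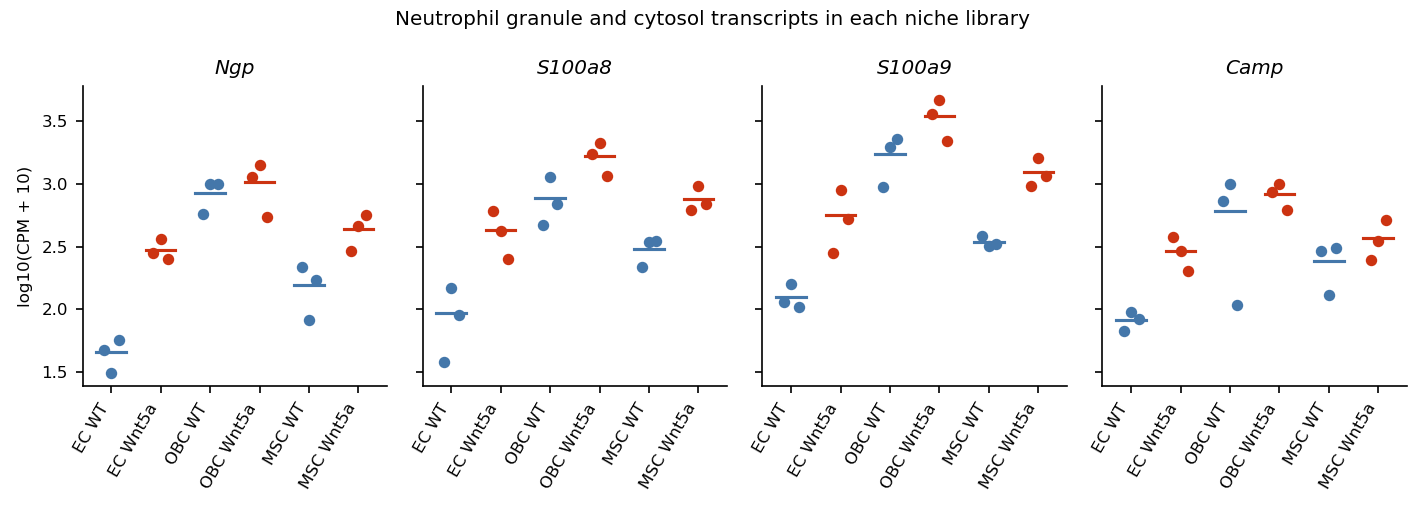
Level of Ngp, S100a8, S100a9 and Camp in each of the 18 niche libraries, as log10(CPM + 10), by population and genotype; each point is 1 library and each bar stands at the log10 of the group's mean CPM plus 10. In EC all 3 Wnt5a libraries lie above all 3 WT libraries for each of the 4 genes, and the EC WT libraries have the lowest group mean of the 6 groups.

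Camp, the gene of cathelicidin, was the only other neutrophil gene with enough UMIs to be tested, at 57.0, 85.8 and 74.2 CPM in WT and 365, 284 and 193 CPM in Wnt5a. The groups did not overlap, but the log2 fold change of 1.86 (SE 0.49) missed the threshold (edgeR adjusted p = 0.0759). It passed without WT 14 (0.0475) or without WT 15 (0.0464). Of 27 listed neutrophil genes, 4 passed the filter on low counts, and the filter favours genes that are high in 1 group. Lactoferrin (Ltf) had 0, 0 and 4 UMIs in WT and 4, 20 and 3 in Wnt5a. Lysozyme (Lyz2), shared with macrophages, had 10, 3 and 3 in WT and 0, 24 and 4 in Wnt5a, and neutrophil elastase (Elane) had 2, 0 and 2 and 1, 7 and 2, with no separation of the groups. Ltf was below the filter here, and it was called in the 4 alternatives with a filter over all niche libraries, without WT 14, without WT 15 and without Wnt5a 18. These 3 genes were picked after their values were seen. Ctsg, Cxcr2 and Ifitm6 were at 0 in all 6 libraries. The marker of mature neutrophils Ly6g had 1 UMI in all, in Wnt5a 17.

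All 27 neutrophil genes together made 446, 536 and 547 CPM in WT 13, 14 and 15 and 1823, 2752 and 1531 CPM in Wnt5a 16, 17 and 18. This is 0.0592 ± 0.00841% (SD, n = 3) of all UMIs in WT and 0.239 ± 0.0874% (SD, n = 3) in Wnt5a. The 3 called genes and Camp supply most of the Wnt5a sums, so the sums are not separate support for the calls. The share did not overlap between genotypes in the other populations either. It was 0.150% to 0.194% in MSC WT and 0.290% to 0.468% in MSC Wnt5a. In OBC it was 0.379% to 0.686% in WT and 0.758% to 1.12% in Wnt5a. In EC other shares also differed without overlap. Mitochondrial UMIs took 0.95% to 2.26% in WT and 2.48% to 2.65% in Wnt5a, immunoglobulin genes 0.0084% to 0.0153% and 0.0262% to 0.0539%, and transcripts that overlap ribosomal RNA 1.87% to 4.33% and 4.63% to 12.4%. Their part in the 3 calls was not tested, except that the same 3 genes passed with the transcripts overlapping ribosomal RNA left out. In bulk libraries of sorted cells, more cells of a type and more of its RNA per cell cannot be told apart. The genes of other blood lineages were measured beside them. B and plasma cell genes summed to 218, 418 and 364 CPM in WT and 775, 475 and 564 CPM in Wnt5a, without overlap, with 1 of 15 tested and 0 past the test. Megakaryocyte and platelet genes summed to 142, 32.2 and 122 and 228, 337 and 145 CPM, also without overlap, on at most 44 UMIs a library. Platelet factor 4 (Pf4) gave 0 UMIs in each WT library and 0, 14 and 3 in Wnt5a. Monocyte and macrophage genes summed to 589.9 to 1107 CPM in WT and 592.6 to 927.5 CPM in Wnt5a, with C1qa, C1qb, C1qc, Ccr2, Csf1r and Cx3cr1 at 0. T and NK cell genes had at most 4 UMIs in a library, with Ccl5, Cd3g, Nkg7 and Trbc2 at 0. The part of other blood cells in the 3 calls was not tested.

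Red cell RNA was highest in 1 WT library. Erythroid genes summed to 15322, 251679 and 20878 CPM in WT 13, 14 and 15 and 54473, 31803 and 48476 CPM in Wnt5a 16, 17 and 18. Haemoglobin genes alone took 1.90% to 24.3% of UMIs in WT, with WT 14 the highest, and 3.80% to 6.28% in Wnt5a. The median log2 fold change of 8 tested erythroid genes was -0.73 with all libraries and 1.33 without WT 14. Without haemoglobin genes in the scaling and the fit, the same 3 genes passed. With WT 14 and the shallowest library, Wnt5a 16, left out together, an analysis added after the data were seen, Lars2 passed beside these 3.

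The log2 fold changes of the same 3 transcripts were also positive in the MSC and OBC libraries. Ngp averaged 146 ± 68.3 CPM in MSC WT and 429.7 ± 136 in MSC Wnt5a, and 843 ± 240.1 and 1021 ± 449 CPM in OBC (SD, n = 3 each). Only S100a9 in MSC passed there (1.88, edgeR adjusted p = 0.00693). The endothelial difference was then set against the mean of the OBC and MSC differences in 1 contrast. The labels do not say whether libraries of different populations share animals, and the contrast treats them as independent. It was larger in EC by 2.0 (SE 0.61) for Ngp, 0.99 (SE 0.54) for S100a8 and 0.90 (SE 0.51) for S100a9 on the log2 scale, and none of these passed (edgeR adjusted p = 0.34, 0.843 and 0.843). Over all 1740 genes this contrast called 0% by edgeR, with 101 at an unadjusted p under 0.05, 0 by DESeq2 and 1 by limma voom. It called 10 genes without WT 13, 16 without WT 15 and 4 without Wnt5a 16.

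The libraries themselves limit what could be called. They held 83254, 95216 and 117989 UMIs in WT 13, 14 and 15 and 18542, 106757 and 57095 in Wnt5a 16, 17 and 18, from 5195 to 10662 genes each. A count of 3 UMIs, taken as the floor of detection, is worth 20.2 to 32.2 CPM in WT, but 137 CPM in Wnt5a 16. That library correlated least with the others (0.534 to 0.602 on log2 CPM). Replicates of a group differed from each other beyond counting noise in every pair. Genes with 1 direction in all libraries were no rarity: all Wnt5a libraries lay above all WT libraries for 6.15% of tested genes and below for 6.84%. An unadjusted p under 0.05 was reached by 120 genes, where 87 are expected by chance. The number of genes past the test moved when 1 library was left out, to 9 without WT 13, 7 without WT 14, 38 without WT 15, 7 without Wnt5a 16, 7 without Wnt5a 17 and 5 without Wnt5a 18.

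**Figure D2:**
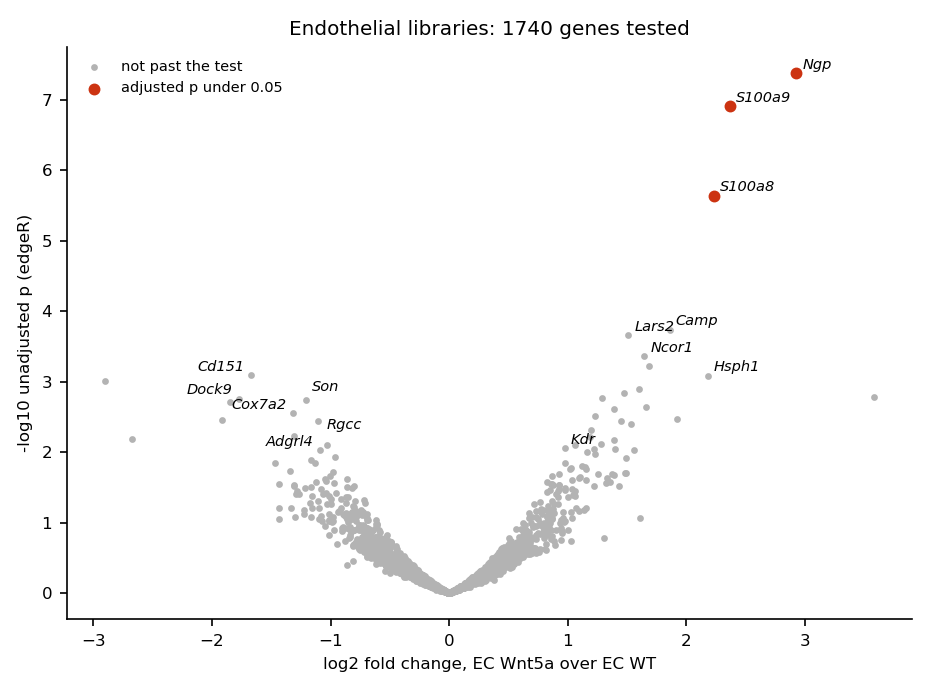
Log2 fold change of EC Wnt5a over EC WT (x axis) against -log10 of the unadjusted p of edgeR (y axis) for the 1740 genes tested; each point is 1 gene and named points are the genes past the test and some others given in the text. Ngp, S100a9 and S100a8 stand apart at the upper right, and no gene on the left passed.

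The endothelial label was checked next. Pecam1 (CD31), Cdh5 (VE-cadherin) and Egfl7, a factor secreted by endothelium, were all present in each library. Pecam1 was at 1444, 944 and 1148 CPM in WT and 1322, 874 and 1160.3 CPM in Wnt5a (log2 fold change -0.10, SE 0.36, edgeR adjusted p = 0.979). For Cdh5 the levels were 1871, 1491 and 2126 and 2917, 1510.0 and 1612 CPM (0.10, SE 0.37, edgeR adjusted p = 0.979). The groups overlapped for both, and the sign of both small differences turned in some alternative analyses. Egfl7 stood at 3011, 2370.2 and 1451 CPM in WT and 2553, 1418 and 1467 CPM in Wnt5a, also overlapping (-0.36, SE 0.38, edgeR adjusted p = 0.918).

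Of 40 genes listed as common to endothelium, 38 were tested. Against the OBC libraries, over both genotypes, 30 of the 38 were higher in EC and 1 lower, where 20.5% of all tested genes were higher and 10% lower, and the list's median log2 difference was 1.80 against 0.45 for all genes. Against the MSC libraries 0 of the 38 passed edgeR in either direction, with 6 at an unadjusted p under 0.05, where 0.345% of all genes were higher in EC and 0.517% lower, and the medians were 0.27 and 0.06. Pecam1 averaged 1395 ± 291 CPM in MSC WT and 1178 ± 251 in EC WT (SD, n = 3 each). The endothelial list took 1.89% to 3.23% of UMIs in EC WT and 2.49% to 2.71% in MSC WT. In Wnt5a it took 2.49% to 2.82% in EC but 1.49% to 1.74% in MSC, without overlap. The libraries labelled EC thus hold endothelial transcripts. The tests of endothelial genes over both genotypes did not separate them from the libraries labelled MSC. Some mesenchymal genes did: of 4 tested, Dcn, Fn1 and Gsn passed as lower in EC than in MSC and 0 as higher. The other, Cxcl12, did not pass (-0.51, edgeR adjusted p = 0.565). The filter used the EC libraries alone, so listed genes seen only in MSC were not tested. Decorin (Dcn), a matrix proteoglycan of fibroblasts, averaged 1551 ± 186 CPM in MSC WT and 78.4 ± 31.8 in EC WT (SD, n = 3 each), with a log2 difference between the populations of -3.77 (SE 0.37, edgeR adjusted p = 1.04e-10). Transcripts of other stromal cells were also present in EC. Mesenchymal and fibroblast genes summed to 1681, 1351 and 1978 CPM in WT and 2325, 2346 and 3046 in Wnt5a, with 4 of 18 tested, all positive and 0 past. Most of each sum is Cxcl12, at 703, 815 and 945 and 866, 1134 and 1160 CPM, together with Gsn. Both also stand in other lists, Cxcl12 among endothelial niche factors and Gsn among actin regulators, so the sum is not a measure of stromal RNA alone. Between genotypes Dcn was at 104, 42.9 and 87.7 and 228, 99.6 and 355 CPM (1.39, edgeR adjusted p = 0.608). Osteoblast genes summed to 2878, 1405 and 2241 CPM in WT and 1094, 2399 and 2111 in Wnt5a, with overlap. Their 2 tested members, Sparc and Alpl, also stand in the basement membrane and arterial lists, and Sparc alone gave 279, 114 and 290 UMIs in WT and 17, 288 and 112 in Wnt5a. Runx2 and Sp7, which define osteoblasts, were at 0 in all 6 libraries, while the bone collagen gene Col1a1 had 2, 4 and 6 UMIs in WT and 1, 4 and 2 in Wnt5a.

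Between genotypes the endothelial list was split, with 18 positive and 20 negative of 38, 0 past the test, 2 at an unadjusted p under 0.05 and a median log2 fold change of -0.02, against 864 positive of 1740 and a median of -0.01 for all genes tested. Kdr, the main VEGF receptor of endothelium, was at 1168, 708 and 1519 CPM in WT 13, 14 and 15 and 3145, 1824 and 1853 in Wnt5a 16, 17 and 18. All Wnt5a libraries were above all WT libraries, but the difference of 0.97 (SE 0.37) did not pass (edgeR adjusted p = 0.415). Ptprb, the phosphatase VE-PTP of endothelial junctions, likewise did not overlap, at 522, 890.2 and 1066 and 1322, 1196 and 1579 CPM (0.72, edgeR adjusted p = 0.74). Esam, an endothelial adhesion molecule, lay lower in every Wnt5a library, at 1244, 922 and 1222 and 684, 713 and 693 CPM (-0.69, edgeR adjusted p = 0.775). Adgrl4, an adhesion receptor of endothelium, stood at 589, 504 and 439 and 182, 284 and 209.5 CPM, again without overlap (-1.09, SE 0.41, edgeR adjusted p = 0.415). Of the 38 tested members, 2 lay above WT in every Wnt5a library and 4 below, where 6.15% and 6.84% of all tested genes did. Genes picked for a small p tend to separate, so this is no further support. Claudin 5 (Cldn5, 0.51), the VEGF receptor Flt1 (0.19), Cd93 (-0.52) and endomucin (Emcn, -0.91) overlapped between the groups. Emcn had 0 UMIs in Wnt5a 16 and 28 and 8 in Wnt5a 17 and 18.

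**Figure D3:**
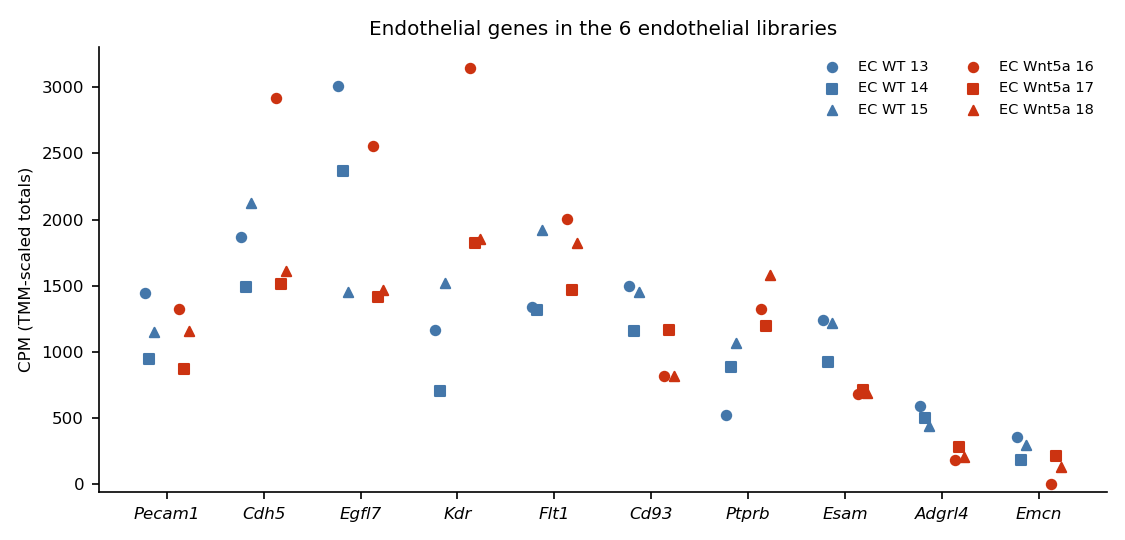
Level in CPM (y axis, linear) of 10 endothelial genes (x axis) in each EC library; points are libraries, WT and Wnt5a in different colours. Wnt5a and WT points overlap for Pecam1, Cdh5 and Egfl7, while all Kdr points of Wnt5a lie above those of WT.

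Vessel types were compared through 3 lists. Sinusoidal genes had 6 of 8 tested members positive and a median of 0.60, with 0 past. Their summed level was 1453, 1083 and 2673 CPM in WT 13, 14 and 15 and 1459, 2484 and 2707 in Wnt5a 16, 17 and 18, so that WT 15 lay with Wnt5a 17 and 18, and WT 13 and 14 with Wnt5a 16. Several of its genes, picked after their values were seen, had more UMIs in WT 15 than in WT 13 and 14 together. Stab2, a scavenger receptor of sinusoids, had 4, 0 and 37 UMIs in WT and 1, 13 and 7 in Wnt5a. P-selectin (Selp) had 0, 0 and 8 and 0, 12 and 9, and the VEGF-C receptor Flt4 had 9, 3 and 34 and 1, 29 and 16. Without WT 15 the list's median was 1.68, and without WT 14 it was 0.29. Among the rule's named members, Tfpi, an inhibitor of coagulation, had a log2 fold change of 1.14, the cytokine receptor subunit Il6st 0.83, and Cyp4b1, a cytochrome P450, -0.83 (edgeR adjusted p = 0.775 for all 3).

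Arterial genes were negative for 8 of 8 tested members, with a median of -0.26 and 0 past. The 8 were split 4 and 4 without Wnt5a 18 (median -0.024), and 3 were positive without WT 13 or without WT 15. Their summed level was 5529, 4258 and 4698 CPM in WT and 3647, 4047 and 3545 in Wnt5a. On this sum every Wnt5a library was below every WT library, but Ly6c1 and Ly6a make up much of it. With their levels, given below, taken out of the sum, the groups overlap. Of the 8 tested members, 2 lay below WT in all Wnt5a libraries, where 6.84% of all tested genes did. Ly6c1 was at 2432, 1898 and 1964 and 1231, 1556 and 1273 CPM (-0.62, edgeR adjusted p = 0.775), and Ly6a, the gene of Sca-1, at 1434, 1019 and 1053 and 729, 851 and 951 CPM (-0.45, edgeR adjusted p = 0.867). Sca-1 is high on the arteriolar endothelium of marrow. Genes of capillaries that take up lipid were negative for 11 of 14 tested, with a median of -0.20 and 0 past. The median was -0.05 without WT 13 and -0.044 without Wnt5a 17, with 7 members positive each time, and -0.34 without WT 14. They made a summed 37522, 26823 and 33952 CPM in WT and 41709, 29036 and 31812 in Wnt5a, with overlap. The fatty acid binding protein gene Fabp4, named after its values were seen, gave 1292, 613 and 1734 UMIs in WT and 352, 1350 and 728 in Wnt5a. Rgcc, a cell cycle regulator of capillary endothelium, was at 1577, 1329.9 and 1276 CPM in WT and 684, 537 and 741 in Wnt5a. No Wnt5a library came near the lowest WT library, yet the difference of -1.11 (SE 0.38) did not pass (edgeR adjusted p = 0.253), and its log2 fold change ranged from -1.31 to -0.97 over the alternatives. Timp4, a protease inhibitor, was -0.71 and Cavin1, a coat protein of caveolae, 0.63 on the log2 scale, neither past the test (edgeR adjusted p = 0.74 and 0.857).

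Factors by which endothelium acts on stem cells had 5 of 23 members tested, 3 positive, 0 past and a median of 0.38, which was 0.12 without Wnt5a 18, 0.22 without WT 13 or without Wnt5a 16, and 0.048 with the filter over all niche libraries. Kitl was at 399, 311 and 297 CPM in WT and 274, 276 and 242 in Wnt5a (-0.34, SE 0.42, edgeR adjusted p = 0.918), and Cxcl12, the chemokine that holds stem cells in marrow, at 703, 815 and 945 and 866, 1134 and 1160.3 CPM (0.38, SE 0.41, edgeR adjusted p = 0.918). The Kitl levels of Wnt5a lay just under those of WT, and those of Cxcl12 overlapped. Basement membrane genes were split, 5 positive of 12 tested with a median of -0.07, which was -0.53 without Wnt5a 17 and 0.064 without WT 13. The collagen IV genes Col4a1 and Col4a2 had log2 fold changes of -0.45 and -0.49 with overlapping groups. Of the signalling pathways of endothelium, NOTCH genes had 0 positive of 4 tested (median -0.21), BMP and TGF-beta genes 2 of 8 (-0.07), and VEGF and angiopoietin genes 5 of 9 (0.19), with 0 past in each. With 1 library left out these medians ran from -0.28 (WT 15) to -0.13 (WT 13), from -0.27 (WT 14) to 0.18 (WT 15) and from 0.067 (WT 13) to 0.38 (WT 15).

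The WNT pathway could be read only in part at this depth. Of 18 genes listed as WNT5A and its candidate receptors, 16 have values here and 1 was tested, the co-receptor Mcam (CD146), at 294, 279 and 209 CPM in WT and 228, 176 and 242 in Wnt5a (-0.31, SE 0.46, edgeR adjusted p = 0.921). Its groups overlapped. Among the receptors Fzd4 had 11, 4 and 12 UMIs in WT and 1, 4 and 3 in Wnt5a, Ryk 5, 1 and 9 and 1, 13 and 1, and Fzd6 2, 2 and 5 and 1, 5 and 2. Fzd3, Fzd9 and Ror2 were at 0 in all 6 libraries, and Ror1 had 1 UMI in WT 14 and 1 in Wnt5a 18. With 3 UMIs as the floor, differences in most receptors were not detectable at this depth. Effectors of non-canonical WNT signalling had 4 positive of 8 tested, a median of 0.11 (0.026 to 0.32 with 1 library left out, lowest without WT 14 and highest without Wnt5a 17) and 0 past. Jun, the transcription factor downstream of JNK, was at 503, 461 and 1141 CPM in WT and 1504, 1019 and 1321 in Wnt5a, where WT 15 lay inside the Wnt5a range (0.83, edgeR adjusted p = 0.613). Ppp3ca, a calcineurin subunit of the calcium branch, had a log2 fold change of 0.38. Genes of the beta-catenin branch had 3 positive of 4 tested, with a median of 0.25 and 0 past. They were split 2 and 2 without Wnt5a 16 (median 0.017) or without WT 13 (0.043), and the median was 0.42 without WT 15.

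Actin regulators, the group named in the study's title for stem cells, had 47 of 75 members tested in EC. Of these 32 were positive, 15 negative and 0 past, 1 with an unadjusted p under 0.05, with a median of 0.17 against -0.01 for all genes. Their summed level was 19825, 13352 and 20783 CPM in WT and 20376, 20167 and 21547 in Wnt5a, where WT 14 was the lowest and the other 5 libraries lay close together. Talin (Tln1), which ties integrins to actin, was at 161, 42.9 and 135 CPM in WT and 182, 176 and 387 in Wnt5a (1.10, SE 0.48, edgeR adjusted p = 0.613). Vasp, which promotes filament growth, was at 266, 268 and 277 and 410.3, 406 and 435 CPM (0.62, edgeR adjusted p = 0.818), and gelsolin (Gsn), which severs filaments, at 579, 300.3 and 540.0 and 775, 667 and 1031 CPM (0.79, edgeR adjusted p = 0.775). The groups did not overlap for these 3 genes. They were the only ones of the 47 tested members above WT in every Wnt5a library, and 1 member lay below. Over all tested genes 6.15% lay above and 6.84% below. The fourth that the rule named, Actr2 of the ARP2/3 complex, overlapped, at 85.5, 107 and 122 and 456, 146 and 96.7 CPM (0.79, edgeR adjusted p = 0.807). The median of the list was 0.02 without WT 14 and 0.30 without WT 15.

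**Figure D4:**
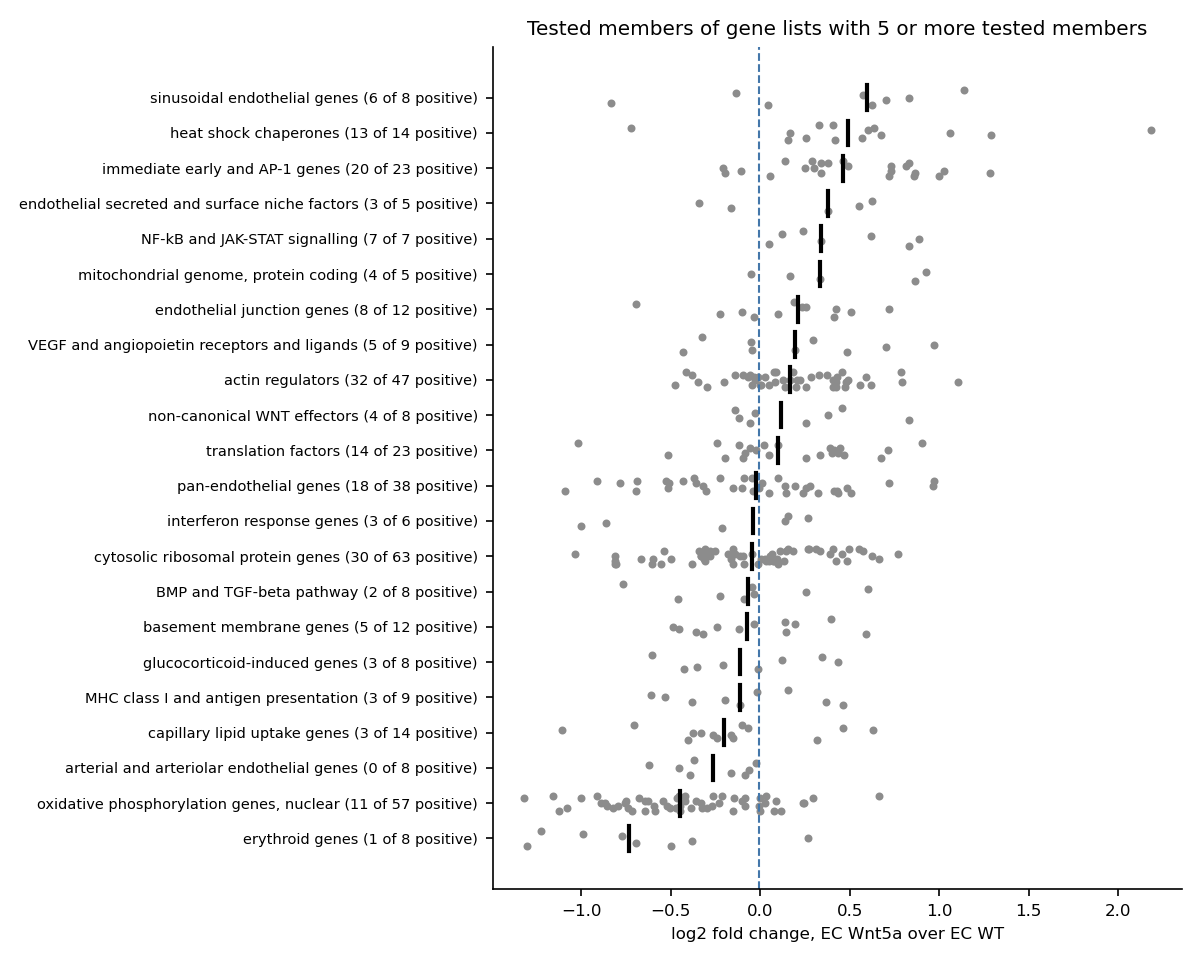
Log2 fold change of EC Wnt5a over EC WT for the tested members of each gene list with 5 or more of them; each point is 1 gene, the short bars are the list medians and the dashed line is the median of all 1740 genes tested (-0.01). Medians lie between -0.73 for erythroid genes and 0.60 for sinusoidal genes.

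Some groups outside endothelial biology leaned one way without a member past the test. Nuclear genes of oxidative phosphorylation were negative for 46 of 57 tested, with a median of -0.45 and 6 at an unadjusted p under 0.05. They summed to 15997, 20634 and 12562 CPM in WT 13, 14 and 15 and 12034, 12847 and 11152 in Wnt5a 16, 17 and 18, where WT 14 was the highest and WT 15 lay within the Wnt5a range. Without WT 14, the library rich in haemoglobin, the median was -0.12. Cox7a2, a subunit of cytochrome oxidase, was at 437, 804 and 283 CPM in WT and 182, 199 and 209.5 in Wnt5a (-1.32, SE 0.44, edgeR adjusted p = 0.243). Its groups did not overlap. Ndufa4 had a log2 fold change of -0.86, Ndufv3 -1.12 and Atp5g1 -1.16. The genes on the mitochondrial genome leaned the other way, with 4 positive of 5 tested and a median of 0.33, among them mt-Nd4 (0.93, edgeR adjusted p = 0.624) and mt-Co1 (0.86, 0.715). Without Wnt5a 17 that median was 0.04. Cytosolic ribosomal protein genes had 30 positive of 63 and a median of -0.04, which turned to 0.34 with 45 positive without WT 14, and was -0.21 without WT 13 and -0.26 without WT 15. Rpl35 was -1.03 (edgeR adjusted p = 0.411) and Rps15a 0.77 (0.73).

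Immediate early genes, which switch on within minutes of stress or stimulation, were positive for 20 of 23 tested, with a median of 0.46, 0 past and 5 at an unadjusted p under 0.05. Their summed level was 6564, 5395 and 15674 CPM in WT and 15225, 11735 and 14230.2 in Wnt5a, so that WT 15 was the highest of all 6 while WT 13 and 14 were the lowest. The median was 1.29 without WT 15 and 0.19 without WT 14. Without WT 13 it was 0.35, with 13 of 24 tested members positive and 11 negative. Klf2, a flow-responsive transcription factor of endothelium, was at 731, 740.0 and 2032 CPM in WT and 2507, 1763 and 2224 in Wnt5a (0.87, SE 0.37, edgeR adjusted p = 0.611), and it passed without WT 15 (1.52, edgeR adjusted p = 0.0236). Btg1, an antiproliferative gene, did not overlap, at 85.5, 53.6 and 142 and 228, 268 and 209.5 CPM (1.28, edgeR adjusted p = 0.41), and Ier2 was 1.02 (0.579). Heat shock chaperones were positive for 13 of 14 tested, with a median of 0.49, 0 past and 4 at an unadjusted p under 0.05. Without WT 13 the median was 0.26, with 12 of 15 positive. The list summed to 5377, 5534 and 7722 CPM in WT and 6883, 8378 and 9234 in Wnt5a. Hsph1 was at 9.5, 53.6 and 27.0 and 182, 146 and 113 CPM (2.18, SE 0.64, edgeR adjusted p = 0.158), on 1 to 5 UMIs in WT. Hsp90ab1 was at 503, 783 and 1208 and 1459, 1387 and 2369 CPM (1.06, edgeR adjusted p = 0.411), and the polyubiquitin gene Ubb, the 1 negative member, was -0.72. Both Hsph1 and Hsp90ab1 lay higher in every Wnt5a library. The antiviral membrane genes Ifitm2 (-1.0) and Ifitm3 (-0.86) were among 3 negative of 6 tested interferon response genes.

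**Figure D5:**
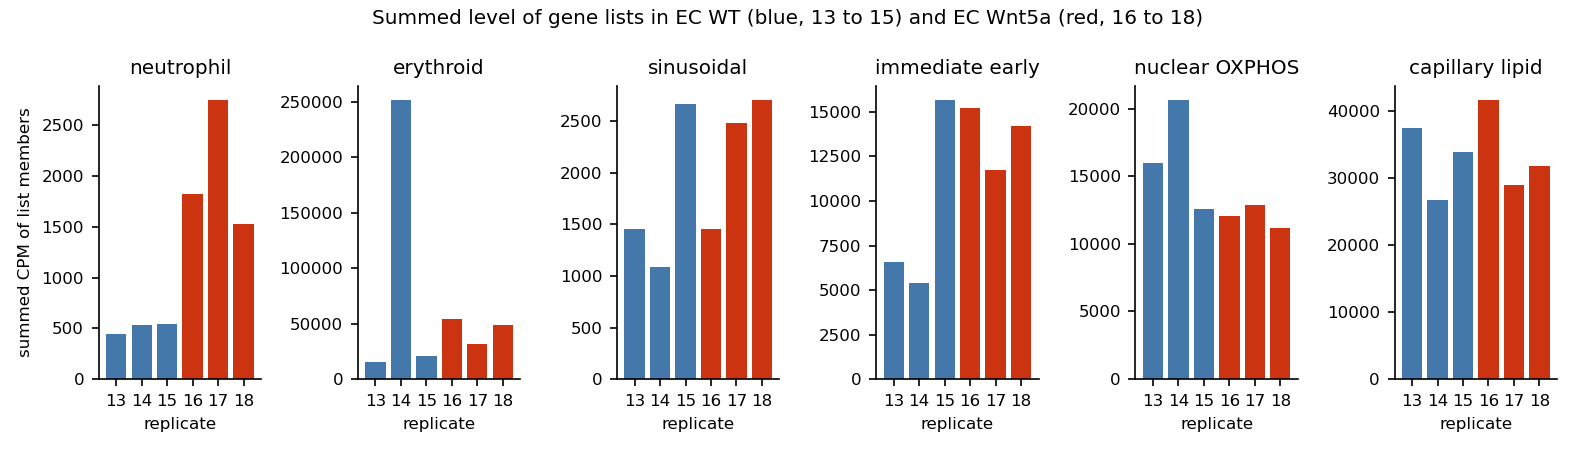
Summed CPM of the members of gene lists (y axis, 1 panel a list) in EC WT replicates 13 to 15 (blue) and EC Wnt5a replicates 16 to 18 (red); each bar is 1 library. The neutrophil sum is at most 547 CPM in WT and at least 1531 CPM in Wnt5a, while in the immediate early panel WT 15 stands with the Wnt5a libraries.

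Next in order of p after the 3 calls and Camp, on the positive side, Lars2, a mitochondrial leucyl-tRNA synthetase, was at 294, 257 and 580.5 CPM in WT and 547, 621 and 2047 in Wnt5a (1.51, SE 0.40, edgeR adjusted p = 0.0759). Wnt5a 18 was the highest and WT 15 lay above Wnt5a 16. Reads of ribosomal RNA are known to fall on this gene, and transcripts of that kind, Lars2 among them, took 3.08 ± 1.23% (SD, n = 3) of UMIs in WT and 7.81 ± 4.10% in Wnt5a, with Wnt5a 18 the highest at 12.4%. Their part in its difference was not tested. Lars2 passed without WT 15 (edgeR adjusted p = 0.00169), Wnt5a 16 (0.00607) or Wnt5a 17 (0.00956). Ncor1, a co-repressor of nuclear receptors, was at 133, 21.4 and 162 and 319, 322 and 403 CPM without overlap (1.65, SE 0.46, edgeR adjusted p = 0.124). The splicing-related genes Ccnl1 (1.60) and Pnisr (1.47), the chaperone Hsp90aa1 (1.29), the chromatin remodelling genes Baz1a (1.66) and Chd4 (1.45), the co-repressor Drap1 (1.39), cyclin D2 (Ccnd2, 1.23) and the lipid droplet enzyme Hsd17b11 (1.92) followed, with edgeR adjusted p from 0.195 to 0.253. Of these 8, Hsp90aa1 overlapped between the groups. Genes picked for a small p tend to separate, so this is no further support. Over all tested genes 6.15% lay above WT in every Wnt5a library.

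On the negative side Cd151, a tetraspanin that binds laminin receptors, was at 494, 300.3 and 189 CPM in WT and 137, 123 and 48.3 in Wnt5a (-1.68, SE 0.49, edgeR adjusted p = 0.158). Dock9, an activator of the GTPase CDC42, was at 247, 214 and 148 and 45.6, 46.0 and 80.6 CPM (-1.77, SE 0.56, edgeR adjusted p = 0.195), and Son, a splicing cofactor, at 1149, 1298 and 830.2 and 501, 537 and 371 CPM (-1.21, edgeR adjusted p = 0.195). For all 3 each Wnt5a library lay below each WT library, and all 3 passed without WT 15 (edgeR adjusted p = 0.0148, 0.0482 and 0.0376). So did Lars2, Ncor1, Ccnl1, Hsp90aa1, Baz1a, Ccnd2, Camp and Cox7a2. Further negative genes were the proteasome subunit Psma6 (-1.92, with 0 UMIs in Wnt5a 16), the lipogenic regulator Thrsp (-1.31), the tetraspanin Cd81 (-0.96), the semaphorin Sema7a (-1.16), the potassium channel Kcna5 (-1.47), the copper chaperone Atox1 (-1.13), the kinase Map4k2 (-1.34) and Oaz1, which limits polyamine synthesis (-0.98). Their edgeR adjusted p ran from 0.253 to 0.602, and Sema7a was the 1 of these 8 whose groups overlapped. The negative genes here were picked for their small p, which favours groups without overlap, so the separation is no further support. Over all tested genes 6.84% lay below WT in every Wnt5a library.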

How the data were processed

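The deposited niche table holds UMI counts per Ensembl gene, whole numbers that are not normalized. The submitters' processing notes name STAR, featureCounts and the mm10 (GRCm38) build, with no versions. The annotation, the way UMIs were collapsed and any use of strand were not given in the sources used here; overlapping genes therefore cannot be told apart. The table has 18194 genes, of which 17973 have a symbol in a table of Ensembl names; 28 spike-in entries were kept out, and 0 columns were left out.

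All 18 niche libraries entered 1 fit of 6 group means in edgeR 4.0.16 (R 4.3.3; TMM scaling, full library totals, robust quasi-likelihood), which gave the Wnt5a over WT difference in EC and its contrast with the mean of OBC and MSC. Genes were kept by filterByExpr (minimum count 10, minimum total 15) on the 6 EC libraries, since the OBC libraries are much shallower; a filter over all 18 is an alternative, as are RLE, plain totals, no filter, EC alone, DESeq2 1.42.0, limma 3.58.1 voom, no robust option, haemoglobin genes left out and each EC library left out. SE is the log2 fold change over the square root of edgeR's F. The test was also run on counts simulated from its own fitted means and spread. That run checks the code and cannot tell whether the libraries are independent.

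Named genes were Pecam1, Cdh5 and Egfl7, those past the test, the 15 positive and 15 negative with the smallest p (without predicted, pseudo and haemoglobin genes), at most 4 members of lowest p from each of 40 lists, and the 5 highest endothelial genes; the text leaves some out. The comparison, lists and rule were chosen with earlier results of these data known, so no list is independent support. Promoters of the 3 genes past the test, all 3 matched by symbol, are from RefSeq. Gene coordinates are from GENCODE on GRCm38.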

Additional observations from a re-analysis of the deposited data

How the results depend on the processing

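Ngp, S100a8 and S100a9 kept their direction in all 17 alternatives, and Ngp its call. The count of 3 was 5 with limma voom, 6 without the robust option, and 5 to 38 with 1 library left out. The contrast with OBC and MSC, at 0, gave 1 with a filter over all niche libraries, 1 with limma voom, 1 without transcripts that overlap ribosomal RNA (chosen after seeing the data), and 0 to 16 with 1 library left out. Flt1 turned to -0.053 and Cdh5 to -0.19 with no filter, and Cdh5 to -0.30 without the library richest in haemoglobin and the shallowest library (chosen after seeing the data). With 1 library left out, Cdh5 ran from -0.23 (without Wnt5a 16) to 0.27 and Pecam1 from -0.24 to 0.057 (without Wnt5a 17), against 0.10 and -0.10. The cause was not tested, and each omission also changes which genes pass the filter. No paired analysis was possible because the WT and Wnt5a libraries share no replicate number in the labels. Depth limits the receptors and most neutrophil genes, and 3 libraries a group limit the test.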
